A study of Mus musculus with 12 samples.

Results

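The 10 genes described here, Cdh1, Epcam, Esrp1, Cdh2, Vim, Snai1, Snai2, Twist1, Zeb1 and Zeb2, are the classical markers and transcription factors of the epithelial-mesenchymal transition (EMT). They were chosen by name, and each was read from the brightest probe set annotated to that gene alone. Each of the 10 had 1 such probe set, out of 19938 genes with one, and all 10 were bright enough to be among the 15950 genes tested. Expression was measured on 12 arrays of embryoid bodies, the floating aggregates formed by differentiating mouse embryonic stem (ES) cells. The cells of every array were A2lox ES cells on the strain background 129P2/OlaHsd, cultured on irradiated feeder fibroblasts and freed of them before aggregation.

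In the Geminin knockdown line, doxycycline (dox) induces microRNAs that target transcripts of the gene Gmnn, which encodes Geminin, a regulator of replication licensing and chromatin. That line gave 3 arrays with 0.5 µg/ml dox, present from day 0, and 3 without dox, all collected on day 4. In the Geminin overexpression line, dox at the same concentration, added on day 3, induces Geminin. It gave 2 arrays with and 2 without dox on day 5 (replicates 1 and 2), and 1 with and 1 without dox on day 4 (replicate 3). The study's title concerns Geminin and the choice of mesoderm and endoderm fate. Nothing in the labels says that replicates were separate cultures, so the p-values refer to the variation among these arrays alone, part or all of which may be technical. The labels do not say whether each line is 1 clone.

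In gastrulation, epiblast cells at the primitive streak lose the adhesion molecule E-cadherin, leave the epithelium and become mesoderm or endoderm. Snail, Zeb and Twist factors drive such transitions by binding E-box motifs and repressing epithelial genes, while N-cadherin and the intermediate filament vimentin mark the mesenchymal state. The miR-200 family of microRNAs targets Zeb1 and Zeb2 transcripts, and the Zeb factors in turn repress the genes of the miR-200 family. Esrp1 is a splicing factor that maintains epithelial isoforms.

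The mature miR-200 sequences are shown because they fall into the 2 seed groups through which this family is known to bind Zeb transcripts. They are given 5′ to 3′ with the seed (bases 2 to 8) in capitals, from RefSeq on GRCm38.p6. The first pair shares the seed AACACUG and the other 3 share AAUACUG. All 5 lie on the minus strand, miR-200a-3p (chr4:156054911-156054932), miR-200b-3p (chr4:156055685-156055706) and miR-429-3p (chr4:156053916-156053937) on 1 chromosome, and miR-141-3p (chr6:124717917-124717938) and miR-200c-3p (chr6:124718324-124718346) on another.
miR-200a-3p: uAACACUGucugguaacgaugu
miR-141-3p: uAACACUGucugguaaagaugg
miR-200b-3p: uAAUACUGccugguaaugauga
miR-200c-3p: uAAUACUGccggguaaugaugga
miR-429-3p: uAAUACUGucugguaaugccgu

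The promoters of Epcam and Snai1 are shown because, of the members looked up, they carried the E-box bound by Snail and Zeb factors, searched as CACCTG and its reverse complement CAGGTG. The windows are the 250 bases before the gene's start, from RefSeq on GRCm38.p6, on the plus strand and with the E-box in capitals. The Epcam window (chr17:87635729-87635978) held 2 E-boxes, whose first bases lay at -187 and -19 from the start. The Snai1 window (chr2:167537945-167538194) held 1, at -126.
Epcam: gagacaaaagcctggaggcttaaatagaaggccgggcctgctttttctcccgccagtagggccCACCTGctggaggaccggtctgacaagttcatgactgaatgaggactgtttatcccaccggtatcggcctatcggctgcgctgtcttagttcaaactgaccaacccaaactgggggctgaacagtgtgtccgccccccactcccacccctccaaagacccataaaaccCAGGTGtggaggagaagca
Snai1: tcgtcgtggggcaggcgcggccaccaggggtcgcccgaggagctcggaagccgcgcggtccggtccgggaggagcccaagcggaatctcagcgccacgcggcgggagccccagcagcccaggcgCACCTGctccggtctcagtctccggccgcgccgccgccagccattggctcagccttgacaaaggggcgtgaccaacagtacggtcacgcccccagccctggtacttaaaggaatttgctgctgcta

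Promoter windows were matched for 5 members, Epcam, Snai1, Twist1, Zeb2 and Vim, with 4 windows for Zeb2 and 8 in all. Cdh1, Esrp1 and Snai2 had no window in the source, and windows of Cdh2 and Zeb1 were left out of the search. Whether those members carry the motif is therefore not reported here. The motif was not found in those of Twist1, Zeb2 and Vim. Of 32851 promoter windows of the same length, 17.2% held it. These matches describe letters in a window, not binding.

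Gmnn itself, the targeted gene, differed with dox by a log2 value of -0.50 ± 0.14 (SE) in the knockdown line and 0.82 ± 0.14 (SE) in the overexpression line. Its dox arrays did not overlap the others of their line and day, although limma's adjusted p was 0.965 and 0.922. The ES cell markers Pou5f1 (log2 11.96 to 12.77) and Nanog (11.25 to 12.32) were bright on every array. Other ES cell markers varied more between arrays, as did Tbx3 (7.6 to 10.71) and Esrrb (7.92 to 10.35). Dppa3 (6.81 to 7.7) had a mean at percentile 37.6 among genes. Summed intensities of 7 primitive streak markers ran from 868 to 5268 in the knockdown line, against 4880 to 10013 in the overexpression line. Both replicate 2 arrays of the knockdown line stood apart, with the lowest streak sums (1325 with dox, 868 without) and the highest sums of 10 visceral endoderm markers (7394 and 9284, against 2819 to 4449 on the line's other arrays). For the line comparison and for knockdown-line dox, a member's value without both arrays is also given where it moved by over 1.5 times and by over 0.05 on the log2 scale. The 9 markers of feeder fibroblasts summed to 1424 to 2265 on all arrays. Of these, Postn, Lum and Fap lay below the brightness filter. The other 6 passed it, among them Col1a1 (log2 8.02 to 9.47) and Col1a2 (8.12 to 8.86).

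Levels below are log2 intensities after quantile normalization, and a level of 1 gene is compared only between arrays, never with another gene. All samples are bulk, so fewer cells of a type and less RNA per cell cannot be told apart. Across the 12 arrays, Cdh1 spanned 1.57-fold from its lowest to its highest array, Snai2 1.84-fold, Epcam 1.92-fold and Esrp1 2.57-fold. The spans of Zeb1, Zeb2 and Twist1 were 2.79-fold, 2.95-fold and 3.19-fold, and those of Vim, Snai1 and Cdh2 were 3.39-fold, 4.26-fold and 7.52-fold. The epithelial members thus varied less than the mesenchymal ones and than every transcription factor but Snai2.

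Cdh1 encodes E-cadherin, the calcium-dependent adhesion molecule of epithelia (probe set 10575052). In the knockdown line it stood at 12.50, 12.08 and 12.45 with dox and at 12.46, 11.90 and 12.32 without. In the overexpression line it stood at 12.10 and 11.85 with dox and 12.12 and 11.88 without on day 5, and at 12.42 with dox and 12.25 without on day 4. It was high throughout, and both lines and both dox states overlapped.

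Epcam encodes an epithelial cell adhesion molecule that ES cells also carry (probe set 10447383). It stood at 11.86, 11.42 and 11.62 with dox and 11.93, 11.44 and 11.56 without in the knockdown line. The overexpression line had it at 11.67 and 10.98 with dox and 11.53 and 11.07 without on day 5, and at 11.40 and 11.42 with and without dox on day 4. Replicate 2 of day 5 was the low end, with or without dox.

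Esrp1, the epithelial splicing factor (probe set 10511560), stood at 10.73, 10.02 and 10.68 with dox and 10.56, 9.76 and 10.39 without in the knockdown line. On day 5 of the overexpression line it stood at 10.02 and 9.37 with dox and 10.05 and 9.89 without. On day 4 it stood at 10.65 with dox and 10.58 without. The day 4 pair thus lay above all 4 day 5 arrays of its line.

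Cdh2 encodes N-cadherin, the cadherin of mesenchyme and nascent mesoderm (probe set 10457644). In the knockdown line it stood at 10.11, 9.39 and 9.92 with dox and at 9.63, 8.85 and 9.81 without. Arrays of the overexpression line had 11.63 and 11.43 with dox and 11.76 and 11.31 without on day 5, and at 11 with dox and 11.13 without on day 4. On day 4 all knockdown-line arrays lay below both overexpression-line arrays, while the dox states overlapped within each line.

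Vim encodes vimentin, the intermediate filament protein of mesenchymal cells (probe set 10469322). It stood at 12.25, 11.07 and 11.85 with dox and 12.07, 10.97 and 11.97 without in the knockdown line. Its level in the overexpression line was 12.64 and 12.65 with dox and 12.73 and 12.52 without on day 5, and at 12.53 and 12.49 with and without dox on day 4. The lines did not overlap on day 4, and replicate 2 held the lowest arrays of the knockdown line.

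Snai1 encodes Snail, the repressor of Cdh1 needed for gastrulation in mouse (probe set 10478884). It stood at 8.64, 8.04 and 8.59 with dox and 8.20, 8.50 and 8.55 without in the knockdown line. The overexpression line's arrays stood at 9.86 and 10.14 with dox and 9.81 and 10.06 without on day 5, and at 9.87 with dox and 10.08 without on day 4. The gap between the lines on day 4 was over 1 log2 unit, and within each line neither dox nor day separated the arrays.

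Snai2, the related repressor Slug (probe set 10433776), had a mean at percentile 35.4 among genes. It ran from 6.93 to 7.09 with dox and 6.88 to 7.07 without in the knockdown line. In overexpression-line arrays it was 6.85 and 7.73 with dox and 7.17 and 7.65 without on day 5, and at 7.03 and 7.11 with and without dox on day 4. Both replicate 2 arrays of day 5 were the high end.

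Twist1 encodes a basic helix-loop-helix factor of mesoderm (probe set 10395320). It stood at 8.27, 7.40 and 8.14 with dox and 8.01, 7.36 and 7.61 without in the knockdown line. Overexpression-line levels were 8.28 and 9.04 with dox and 8.79 and 8.93 without on day 5, and at 8.28 and 8.05 with and without dox on day 4. The lines overlapped on day 4.

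Zeb1 and Zeb2 encode zinc-finger homeobox repressors of Cdh1. Zeb1 (probe set 10453678) stood at 7.43, 8.31 and 7.90 with dox and 7.75, 8.62 and 7.79 without in the knockdown line. On day 5 of the overexpression line it stood at 8.13 and 8.91 with dox and 8.31 and 8.74 without, and on day 4 at 7.79 with dox and 7.53 without. Its highest knockdown-line arrays were both of replicate 2.

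Zeb2 (probe set 10482448) ran the other way between replicates of the knockdown line, at 8.04, 7.45 and 8.05 with dox and 7.77, 7.32 and 7.91 without. The other line's levels were 8.41 and 8.88 with dox and 8.62 and 8.76 without on day 5, and at 8.18 with dox and 8.07 without on day 4. Replicate 2 was thus low for Zeb2 and high for Zeb1 in the knockdown line.

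**Figure D1:**
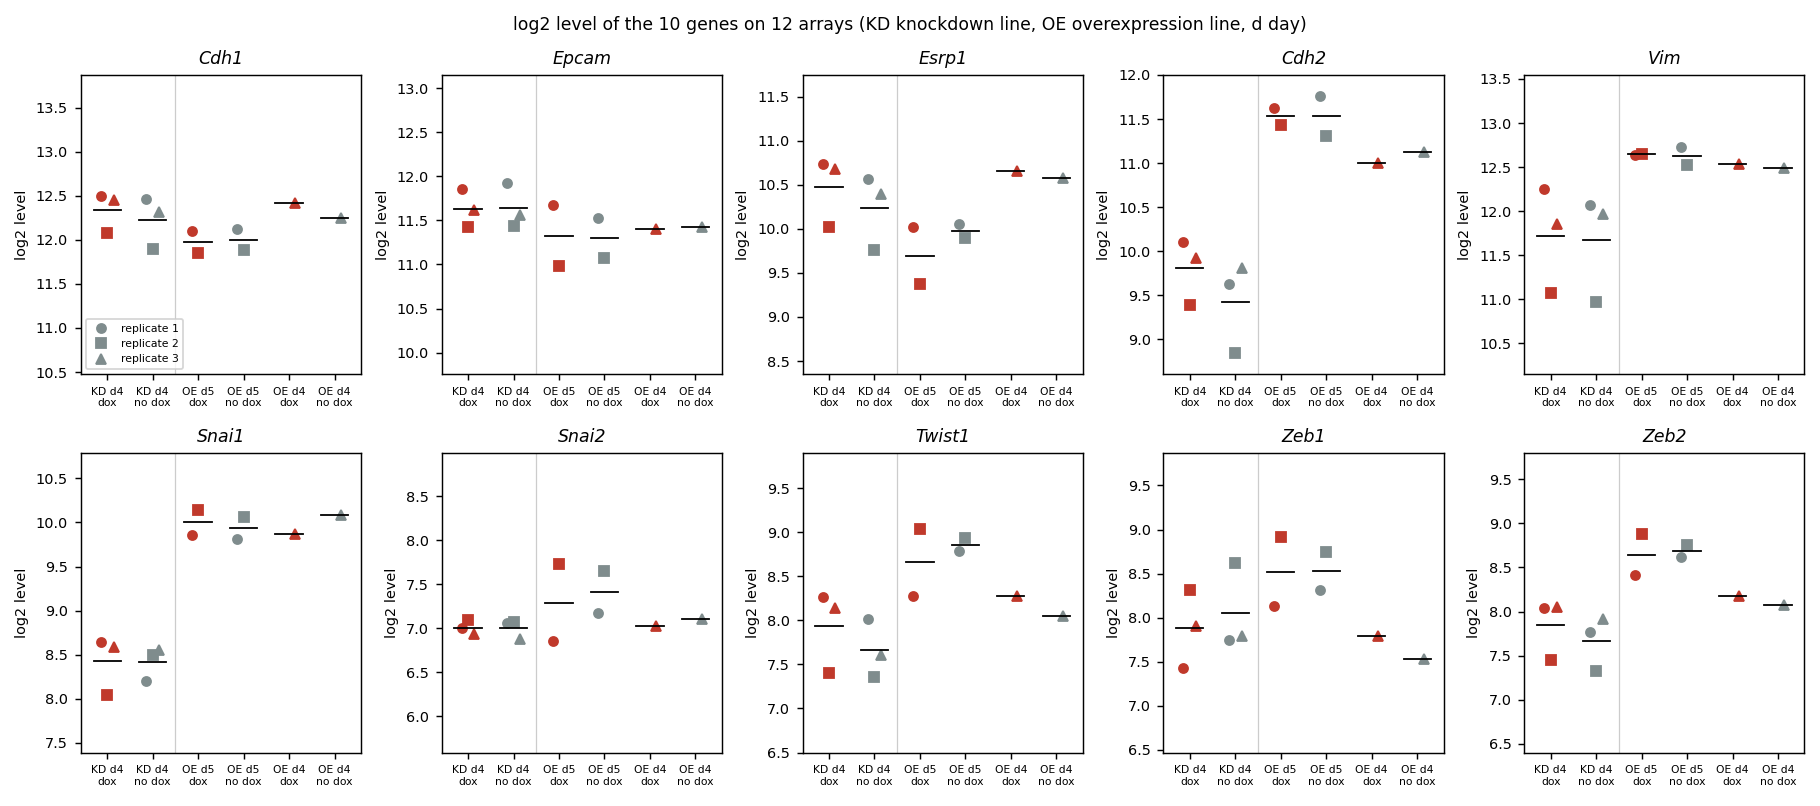
Log2 intensity (vertical axis) of each member on the 12 arrays, 1 panel a gene, by line, day and dox. Each point is 1 array and the bar is the group's mean. On day 4, Cdh2, Snai1, Vim and Zeb2 sit lower in all 6 knockdown-line arrays than in both overexpression-line arrays. Of all genes tested, 16.5% are apart in this way in either direction. Cdh1 overlaps between the lines on day 4 and between dox states within each line. In the overexpression line its day 5 arrays all sit lower than its day 4 arrays.

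The largest differences among the members were between the 2 lines. With the dox effects fitted, the knockdown line was set against the overexpression line on day 4 with limma, and a gene was called where its adjusted p (Benjamini-Hochberg, over all 15950 genes) was under 0.05. Snai1 was the 1 member called, and 0.307% of all genes tested were called. At an unadjusted limma p under 0.05 there were 2, Snai1 and Cdh2, beside 11.6% of all genes. It was 2.98-fold lower in the knockdown line, a log2 difference of -1.58 ± 0.21 (SE; 95% interval -2.04 to -1.11; limma adjusted p = 0.0202). That call rests on single arrays. Its difference was -1.40 with a limma adjusted p of 0.897 without the day 4 array of the overexpression line that had no dox, and -1.67 with 0.125 without that line's day 4 dox array. It was -1.47 with a limma adjusted p of 0.0663 without knockdown-line control replicate 1, and -1.62 with 0.0548 without control replicate 2.

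Cdh2 differed by a like amount, -1.66 ± 0.31 (SE; 95% interval -2.34 to -0.98), or 3.16-fold lower in the knockdown line, but missed the threshold (limma adjusted p = 0.0671). Without both replicate 2 arrays of the knockdown line, Cdh2 differed by -1.37 (limma adjusted p = 0.0256) and Snai1 by -1.62 (limma adjusted p = 0.0117), and both were called. Vim differed by -0.83 ± 0.38 (SE; 95% interval -1.68 to 0.02; limma adjusted p = 0.445), and by -0.48 without those arrays. Zeb2, at -0.46 ± 0.25 (SE), and Twist1, at -0.53 ± 0.32 (SE), were not called either. Without both arrays Zeb2 differed by -0.28, and without knockdown-line control replicate 2 alone by the same. Twist1 ranged from -0.82 to -0.38 over the fits that left out 1 array.

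The epithelial members showed no called difference between the lines. Cdh1 differed by -0.09 ± 0.20 (SE), with a 95% interval of -0.54 to 0.36 that leaves out a difference of the size fitted for Cdh2. Epcam differed by 0.24 ± 0.25 and Esrp1 by -0.46 ± 0.31 (SE). The remaining factors, Zeb1 (0.43 ± 0.36) and Snai2 (-0.12 ± 0.24), were not called. Without both replicate 2 arrays of the knockdown line Zeb1 differed by 0.15, Esrp1 by -0.22 and Cdh1 by 0.07, and Esrp1 and Zeb1 had the same values without control replicate 2 alone. The median absolute log2 difference over the 10 members was 0.46, against 0.15 over all genes tested.

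All 6 knockdown-line arrays lay below both day 4 arrays of the overexpression line for 4 members, Cdh2, Snai1, Vim and Zeb2, and above them for Epcam. Of all genes tested, 16.5% were apart in this way in either direction. For Epcam the gap was within rounding, with knockdown-line dox replicate 2 and the overexpression line's day 4 control both at 11.42. Its deposited intensities overlapped, at 2720 on that knockdown-line array and 2735.9 on the overexpression line's day 4 dox array. The day 4 arrays of the overexpression line are both of replicate 3, so the closest match is replicate 3 of the knockdown line. On those arrays Snai1 was lower in the knockdown line by a log2 difference of -1.29 with dox and -1.53 without. Cdh2 differed there by -1.07 and -1.33, Vim by -0.67 and -0.53, and Cdh1 by 0.04 and 0.07. Each of these values is 1 array against 1 and carries no test. The sums of the streak markers moved with the line in the same direction, at 868 to 5268 in the knockdown line against 8553 with and 9819 without dox on day 4 of the overexpression line. In the fit, 7 of 7 streak markers were lower in the knockdown line, with a median of -2.27 and 3 called. The called ones were Mesp1, Tbx6 and Evx1 (-2.64 ± 0.41, SE; limma adjusted p = 0.0321). Those calls were lost without either day 4 array of the overexpression line. Fitted differences of 7 of 9 ES pluripotency markers (median 0.45) and 8 of 10 visceral endoderm markers (median 0.28) were higher in the knockdown line. Those of 3 of 4 primed epiblast markers were lower (median -0.42), and 0 were called in each of these 3 lists. The part of all these markers in the results was not tested.

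The difference between the cadherins followed Cdh2. The log2 level of Cdh2 minus that of Cdh1, compared only between arrays, was -2.39, -2.69 and -2.53 with dox and -2.82, -3.05 and -2.51 without in the knockdown line. In the overexpression line it was -0.47 and -0.42 with dox and -0.36 and -0.57 without on day 5, and -1.42 with dox and -1.12 without on day 4. The lines did not overlap on day 4, and within the overexpression line the days did not.

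The other difference visible in the levels was between day 5 and day 4 in the overexpression line. With dox fitted, 0 members were called by limma, and 0.558% of all genes tested were. At an unadjusted limma p under 0.05 there were 3 members, Zeb1, Zeb2 and Esrp1, beside 14.2% of all genes. Zeb1 was 1.81-fold higher on day 5, a log2 difference of 0.86 ± 0.31 (SE; 95% interval 0.17 to 1.55; limma adjusted p = 0.244). Zeb2 was 1.46-fold higher, at 0.54 ± 0.21 (SE; limma adjusted p = 0.28). Esrp1 was 1.71-fold lower, at -0.78 ± 0.27 (SE; 95% interval -1.37 to -0.18; limma adjusted p = 0.218). The epithelial splicing factor and the Zeb repressors therefore had opposite signs in the fit, each short of the adjusted threshold.

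Twist1 (0.59 ± 0.28) and Cdh2 (0.47 ± 0.27) had positive fitted differences and Cdh1 a negative one (-0.35 ± 0.17; 95% interval -0.73 to 0.04). Snai1 differed by -0.01 ± 0.18, with an interval of -0.41 to 0.39, Epcam by -0.10 ± 0.21 and Vim by 0.13 ± 0.33 (SE each). All 4 day 5 arrays lay above both day 4 arrays for Cdh2, Zeb1 and Zeb2, and below them for Cdh1 and Esrp1. Of all genes tested, 30.5% were apart in either direction. Every day 4 array of this line is replicate 3 and every day 5 array is replicate 1 or 2, so day and replicate cannot be told apart. The median absolute log2 difference was 0.41 over the members and 0.13 over all genes.

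Dox in the knockdown line, which lowers Gmnn, moved no member past the threshold. By limma, 0 of 10 members were called, 0 had an unadjusted p under 0.05, and the background was 0.00627% called and 3.76% at that unadjusted p. The largest fitted difference was that of Cdh2, at 0.38 ± 0.25 (SE; 95% interval -0.18 to 0.94), or 1.3-fold higher with dox. It was higher with dox in each replicate pair, by 0.48, 0.54 and 0.12, and the groups overlapped (p = 0.4 in an exact two-sided permutation test, which cannot go below 0.1). The fitted difference of Cdh2 ran from 0.09 to 0.59 when each array of the line was left out in turn, and it was lowest without control replicate 2. Without both replicate 2 arrays it was 0.30 ± 0.17 (SE; limma adjusted p = 0.656), and 0 members were called. Those arrays moved Snai1, which then differed by 0.24, and Zeb1, which then differed by -0.10.

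Twist1 (0.26, 0.04 and 0.52), Esrp1 (0.18, 0.26 and 0.29), Zeb2 (0.27, 0.14 and 0.14) and Cdh1 (0.04, 0.18 and 0.13) were also higher with dox in every same-numbered pair of arrays. These 5 members compare with 19.5% of all genes tested. They include epithelial as well as mesenchymal markers. No member was lower in all 3 pairs, and no member's dox and no-dox arrays were free of overlap, beside 8.22% of all genes. Snai1 differed by 0.44, -0.45 and 0.04 between pairs, and Vim by 0.18, 0.10 and -0.11. Cdh1, Epcam and Snai1 had fitted differences of 0.12 ± 0.16, -0.01 ± 0.20 and 0.01 ± 0.17 (SE each).

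Dox in the overexpression line, which raises Gmnn, gave fitted differences of 0.16 or less in size. By limma, 0 of 10 members were called and 0 had an unadjusted p under 0.05, beside 0.00627% and 0.934% of all genes. Cdh2 differed by -0.14 and 0.12 in the day 5 pairs and -0.14 in the day 4 pair, a fitted -0.05 ± 0.25 (SE). Esrp1 had the largest value, -0.16 ± 0.25 (SE), which came from a single pair (-0.52 in replicate 2, against -0.03 and 0.07). No member moved one way in all 3 pairs, beside 27.1% of all genes, and no member's groups were free of overlap, beside 3.79%. Snai1 differed by -0.03 ± 0.17 (SE).

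The dox effect of the knockdown line minus that of the overexpression line was 0.43 ± 0.36 (SE) for Cdh2, 0.40 ± 0.36 for Esrp1 and 0.33 ± 0.37 for Twist1. By limma, 0 members and 0% of all genes were called for this difference, with 2.13% of all genes at an unadjusted p under 0.05. The median absolute log2 dox effect was 0.14 over the members and 0.10 over all genes in the knockdown line, and 0.04 and 0.06 in the overexpression line.

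**Figure D2:**
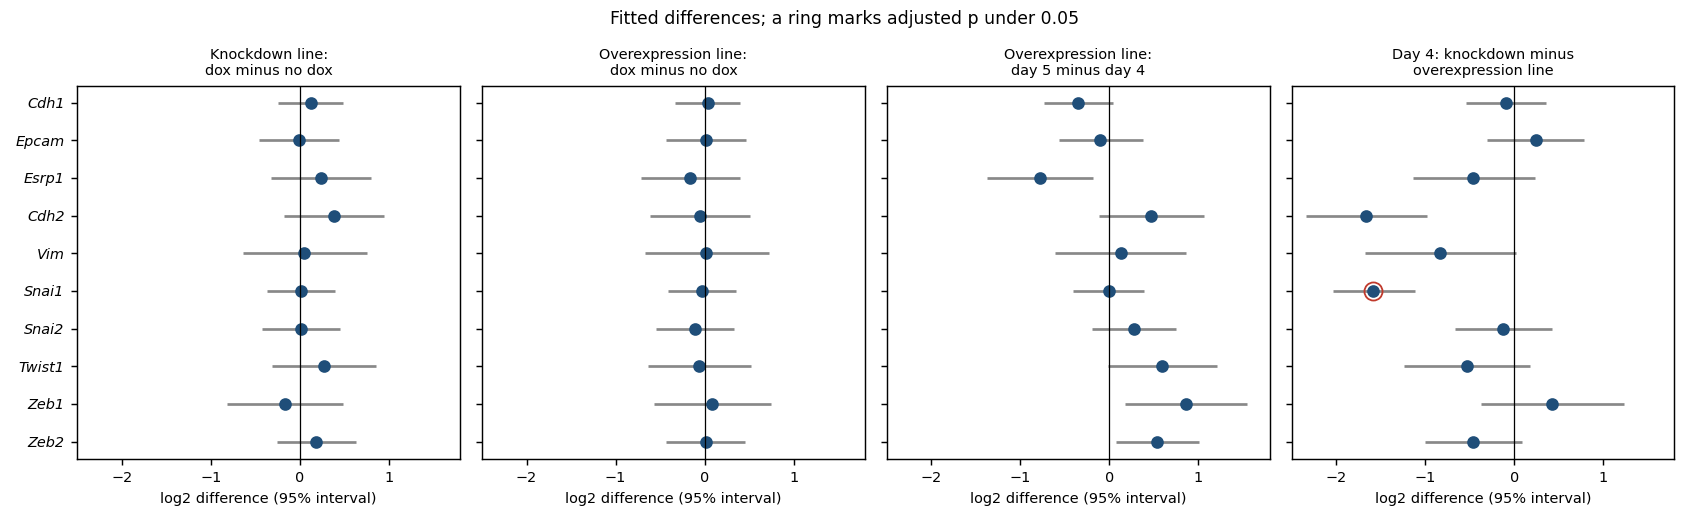
Fitted log2 differences (horizontal axis) of the 10 members with 95% intervals from limma, for dox in each line, day 5 minus day 4, and the knockdown minus the overexpression line. A ring marks an adjusted p under 0.05, which Snai1 between lines (-1.58) alone has among the members. In this fit, which has no replicate block, the intervals of all members include 0 for dox in both lines.

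Members also differed between replicate numbers. Replicate 2 minus replicate 1 was taken in the dox and no-dox arrays of the knockdown line and of day 5 of the overexpression line. Cdh1, Epcam, Esrp1 and Cdh2 were lower in replicate 2 in all 4 groups, and Snai2 and Zeb1 were higher. Of all genes tested, 42.9% went one way in all 4. Epcam differed by -0.43 with dox and -0.48 without in the knockdown line, and by -0.69 and -0.46 in the overexpression line. Zeb1 differed by 0.88 and 0.87 in the knockdown line, and by 0.78 and 0.43 in the overexpression line. Zeb1 and Snai2 were thus higher, and Cdh2 and the 3 epithelial members lower, in replicate 2 of every group.

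For Vim, Zeb2 and Twist1 the replicate step was not alike in the 2 lines. Vim differed by -1.18 with dox and -1.10 without in the knockdown line, but by 0.00 and -0.22 in the overexpression line. Zeb2 differed by -0.59 and -0.46 in the knockdown line, but by 0.46 and 0.14 in the overexpression line. Twist1 had the same pattern of signs, at -0.86 and -0.65 against 0.76 and 0.14. The difference of these replicate steps between lines was not tested. Marker sums differed between the same arrays. Streak sums in the knockdown line were 1325 in replicate 2 against 5268 in replicate 1 with dox, and 868 against 2185 without. On day 5 of the overexpression line they were 4880 against 9111 with dox, and 4994 against 10013 without. Primed epiblast sums were also lower in replicate 2 of all 4 groups (7388 against 9532, 5331 against 8011, 3081 against 6031 and 3854 against 6912). Visceral endoderm sums were higher in replicate 2 of all 4 groups, by the most in the knockdown line. The part of these markers was not tested.

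**Figure D3:**
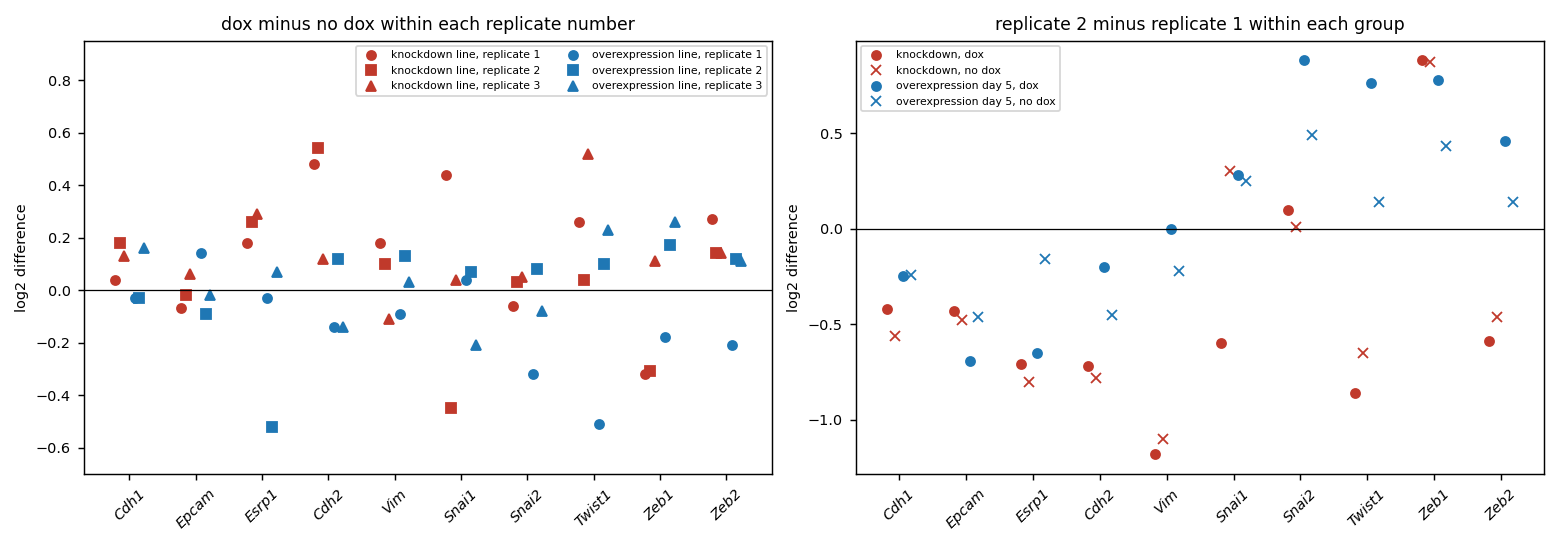
Log2 differences (vertical axis) of each member between single arrays: dox minus no dox within each replicate number (left), and replicate 2 minus replicate 1 within each group (right). Each point is 1 pair of arrays, red for the knockdown and blue for the overexpression line. On the right, Zeb1 and Snai2 lie above 0 in all 4 groups and Cdh1, Epcam, Esrp1 and Cdh2 below.

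Wider sets of EMT genes were set beside the members. Of 36 further epithelial genes (junction, keratin and polarity genes), 22 had a positive and 14 a negative fitted difference between the knockdown and the overexpression line, with a median of 0.06 and 0 called by limma. Over all genes tested 53.1% were positive, with a median of 0.02, and 0.307% were called. The desmosomal plaque gene Dsp stood furthest out at -1.33 ± 0.44 (SE; limma adjusted p = 0.281). Next came the keratins of simple epithelia, Krt19 at -1.10, Krt8 at -0.95 and Krt18 at -0.55, none of them called. Of 26 further mesenchymal genes, 21 were negative and 5 positive, with a median of -0.17. The 1 called was Cdh11, a mesenchymal cadherin, at -0.82 ± 0.13 (SE; limma adjusted p = 0.0433). That call was lost in 10 of the 12 fits that left out 1 array, and over the 12 the difference lay between -0.90 and -0.66, with a limma adjusted p of up to 0.897. It was lost without both replicate 2 arrays of the knockdown line too (limma adjusted p = 0.0826). The largest mesenchymal difference was that of Cd44, at -1.02 ± 0.34 (SE; limma adjusted p = 0.283). Fn1, which encodes the matrix protein fibronectin, differed by -0.89 ± 0.27 (SE; limma adjusted p = 0.231). The epithelial split lay near that of all genes, and its largest differences were negative, like those of the mesenchymal set.

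Genes of gastrulation EMT stood further from 0. Of 17, 14 were negative and 3 positive in the knockdown against the overexpression line, with a median of -0.57 and 3 called, all lower. Mesp1, a factor of early mesoderm, fell by 1.62 ± 0.20 (SE; limma adjusted p = 0.0171). Msgn1 and Tbx6, factors of presomitic mesoderm, fell by 1.37 ± 0.16 (limma adjusted p = 0.0149) and 1.05 ± 0.15 (limma adjusted p = 0.0249). Mesp1 ran from 5.98 to 6.63 with dox and 6.07 to 6.26 without in the knockdown line, against 7.79 with and 7.68 without dox on day 4 of the overexpression line. The streak factors Mixl1 (-3.16 ± 0.95) and Eomes (-2.27 ± 0.68) had larger differences that were not called (limma adjusted p of 0.228 and 0.231). Both were lowest in replicate 2 of the knockdown line, Mixl1 at 8.04 with dox and 7.03 without. These genes overlap the streak markers given above. Without either day 4 array of the overexpression line, or with the arrays without dox alone, 0 genes were called between lines, so these 3 calls were lost too. Mesp1 then differed by -1.89 without the control array (limma adjusted p = 0.388) and by -1.49 without the dox array (limma adjusted p = 0.125). Over the 12 fits that left out 1 array the calls of Mesp1 and Msgn1 were lost in 4 each and that of Tbx6 in 7. Without both replicate 2 arrays of the knockdown line all 3 were called.

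Of 22 EMT signals and corepressors, 18 were negative, with a median of -0.17. The growth factor gene Tgfb1 was the 1 called, at -1.51 ± 0.25 (SE; limma adjusted p = 0.0438). The call was lost in 10 of the 12 fits that left out 1 array, and over the 12 the difference lay between -1.60 and -1.34. It stood at 9.33, 8.47 and 9.0 with dox and 8.87, 8.37 and 8.89 without in the knockdown line, against 10.29 with and 10.22 without dox on day 4 of the overexpression line. Of 10 other cadherins and catenins, 0 were called, and their median was -0.05.

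Between day 5 and day 4 of the overexpression line, 24 of 26 mesenchymal genes had a positive difference, with a median of 0.36, 1 called and 12 at an unadjusted limma p under 0.05. Over all genes tested 49.8% were positive, 0.558% called and 14.2% at that unadjusted p. The called gene was Foxc1, a forkhead factor of mesoderm, which rose by 0.90 ± 0.12 (SE; limma adjusted p = 0.0212). The call was lost in 6 of the 12 fits that left out 1 array. Its difference was 0.75 without the day 4 control array (limma adjusted p = 0.61) and 1.04 without the day 4 dox array (limma adjusted p = 0.376). It stood at 7.67 and 8.0 with dox and 7.86 and 7.83 without on day 5, against 7.08 with and 6.81 without on day 4. The largest mesenchymal difference was that of Acta2, at 1.39 ± 0.44 (SE; limma adjusted p = 0.18), which was not called. Of 36 epithelial genes, 21 were positive, with a median of 0.06 and 0 called. Krt18, a keratin of simple epithelia, differed by 1.13 ± 0.43 (SE; limma adjusted p = 0.27). Grhl2, a factor that maintains epithelial junction genes, differed by -0.61 ± 0.17 (SE; limma adjusted p = 0.135). The related Grhl3 had the opposite sign, at 0.53 ± 0.16 (SE; limma adjusted p = 0.154), and Krt8 differed by 0.71 ± 0.54 (SE). Medians for gastrulation EMT, the signals and the other cadherins and catenins were -0.03, 0.10 and 0.02, with 0 called in each. Markers of other cell types moved with day as well. Of 10 visceral endoderm markers 8 were higher, with sums of 5157 to 5982 on day 5 against 3192 and 3521 on day 4. All 4 primed epiblast markers had negative differences, at summed intensities of 3081 to 6912 against 8457 and 8895, and their member Dnmt3b was called lower (-1.22 ± 0.22, SE; limma adjusted p = 0.0457). Of 9 ES pluripotency markers 6 were higher and 3 lower, with a median of 0.33. Among the lower, Pou5f1 was called, at -0.59 ± 0.10 (SE; limma adjusted p = 0.0383). Tbx3 (1.07 ± 0.5) and Esrrb (1.04 ± 0.68, SE each) had positive differences and were not called. The calls of Dnmt3b and Pou5f1 were lost in some of the fits that left out 1 array. Of the 6 feeder fibroblast markers tested, 4 were higher. The part of these markers in the result was not tested.

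Under dox, 0 genes of these 5 sets were called in either line. In the knockdown line 15 of 17 gastrulation EMT genes and 19 of 22 signals had positive differences, with medians of 0.10 and 0.06, while 52.7% of all genes were positive. Beside these, 7 of 7 streak markers were higher with dox (median 0.78), 8 of 9 ES pluripotency markers lower (median -0.34) and 10 of 10 visceral endoderm markers lower (median -0.30), with 0 called in each, and their part was not tested. Mixl1 differed there by 0.91 ± 0.77 and Eomes by 0.88 ± 0.56 (SE). The mesenchymal set split 16 to 10 and the epithelial set 17 to 19, with medians of 0.05 and 0.00. In the overexpression line the gastrulation set split 11 to 6, and 56.7% of all genes were positive.

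**Figure D4:**
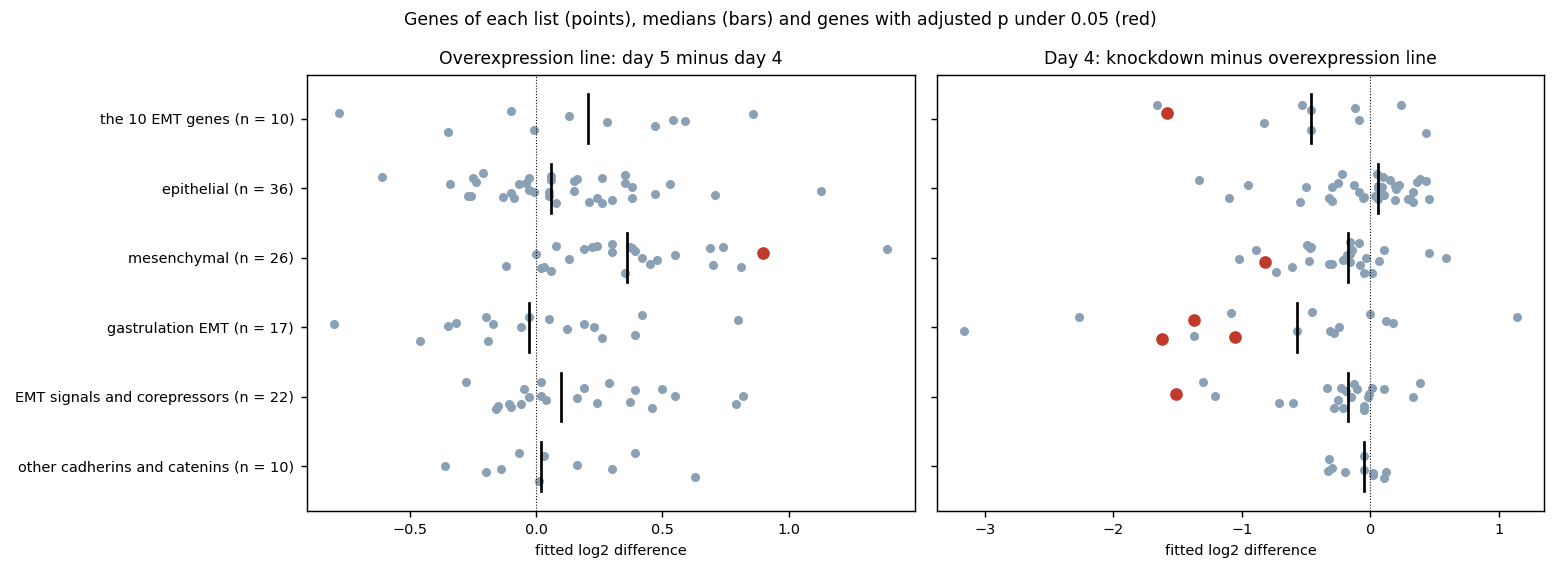
Fitted log2 differences (horizontal axis) of the 10 members and the further sets, for day 5 minus day 4 in the overexpression line (left) and for the knockdown minus the overexpression line on day 4 (right). Each point is 1 gene, red where the adjusted p is under 0.05, and the bar is the set's median, which is -0.57 for gastrulation EMT between lines and 0.36 for mesenchymal genes between days.

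Probe sets named for miR-200 hairpins were looked at after the files had been seen, and they read the hairpin region rather than the mature microRNA printed above. Those of Mir200a and Mir200c were tested, those of Mir200b and Mir141 were below the filter, and that of Mir429 is shared with another gene. In the knockdown line Mir200c stood at 7.20, 7.23 and 6.94 with dox, against 7.66, 7.28 and 8.06 without (-0.54 ± 0.23, SE; limma adjusted p = 0.965). Mir200a stood at 6.58, 6.60 and 6.71 with dox, against 6.33, 6.50 and 6.21 without (0.29 ± 0.09, SE; limma adjusted p = 0.965). Both were free of overlap between dox states, as were 8.22% of all genes, in opposite directions, and neither was called. Mir200c differed most in replicate 3 and hardly in replicate 2, and 2 of the 3 no-dox levels of Mir200a lay under the filter's 6.46. With dox in the overexpression line Mir200a differed by -0.09 ± 0.09 and Mir200c by 0.07 ± 0.23 (SE).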

How the data were processed

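The authors deposited linear intensities, with 1 value for each probe set on each array. Per the labels' protocols, 1 µg of RNA was labelled with biotin for whole-transcript arrays. How probes were summarised and normalized is not given in the sources used here. The mean of an array lay between 677.3 and 696.6. Precision is limited by how many arrays there are.

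Values were transformed as log2(intensity + 1) and quantile normalized over all 35512 probe sets. The platform annotation named 1 gene for 21789 of them and several for 1621. A gene with several probe sets was read from the brightest. Genes with a mean under the 20th percentile, a log2 level of 6.46, were left out. One limma model (limma 3.58.1, R 4.3.3; lmFit and eBayes) covered all 12 arrays, with baselines per line and day and 1 dox term per line, without a replicate block. It had 7 residual and 3.5 prior degrees of freedom. Adjusted p-values are Benjamini-Hochberg over 15950 genes. Samples were grouped by the labels, and no files were left out.

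The model was tested on simulated arrays. The members and lists were chosen with earlier results of these data known. Genes named for a fitted difference within a list are among the up to 4 with the largest in size and those called. Not all of these are named. Promoter and microRNA sequences are from RefSeq (GRCm38.p6). Alternatives were another normalization, filter, array weights, an eBayes trend, each line or day alone, the replicate block, and each array left out in turn.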

Additional observations from a re-analysis of the deposited data

How the results depend on the processing

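The count of members called between lines was 1. It was 2 (Snai1 and Cdh2) with median centring, array weights, an eBayes trend, and both replicate 2 arrays of the knockdown line left out, 0 with the arrays without dox alone, and 0 to 2 when each array was left out in turn. Between days it was 0, and 5 with array weights (Cdh1, Esrp1, Twist1, Zeb1 and Zeb2). For dox in either line, and for the difference, 0 members were called under every alternative run. Array weights moved the genes called from 89 to 2567 for day, from 49 to 1170 for line and from 1 to 201 for dox in the overexpression line. Leaving out single arrays gave 0 to 148 genes for day and 0 to 80 for line. The day count was 33 with median centring, 27 with no filter, 170 with a stricter filter, 178 with an eBayes trend and 201 without the knockdown line's replicate 2 arrays. The line count was 30 with no normalization, 29 with no filter and 0 with the arrays without dox alone. The knockdown-line dox count of 1 became 0 with that line fitted alone, as did the overexpression-line count of 1 with its line or its day 5 alone. The cause of these shifts was not tested.

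With the replicate block, 1, 1 and 0 genes were called for dox in the knockdown line, dox in the overexpression line and their difference, and 0 members in each. Cdh2 then differed by 0.38 ± 0.10 with dox in the knockdown line (SE; limma adjusted p = 0.3). It was the 1 member under an unadjusted limma p of 0.05 there with the block, beside 12.2% of all genes. The unadjusted limma p of Cdh2 was 0.00689 with the block and 0.163 without. Same-numbered deviations in the knockdown line correlated at 0.602, 0.438 and 0.051. In the overexpression line the replicate 2 minus replicate 1 differences of day 5 correlated at 0.785 between dox and no dox. With pair 3 under 0.1, the numbers were not taken as pairs in the main fit. The low value of pair 3 does not show that the arrays were unpaired, since the other correlations were higher.

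The signs of the following fitted log2 differences turned. With no normalization, Snai1 was -0.04 and Snai2 -0.09 for knockdown-line dox, both were -0.02 for the difference of dox effects, and Snai1 was 0.02 for day. With median centring, Epcam was 0.10, 0.00 and 0.11 for knockdown dox, overexpression dox and their difference, Vim -0.02 for overexpression dox, and Gmnn 0.02 and Snai1 0.04 for day. With array weights, Snai2 and Vim were -0.02 for knockdown dox, Epcam -0.02 and Twist1 0.17 for overexpression dox, Cdh1 and Vim -0.05 for the difference, Snai1 0.02 for day and Cdh1 0.03 for line. Without day 4 of the overexpression line, its dox effects were -0.03 for Cdh1, 0.06 for Snai1, 0.00 for Zeb1 and -0.04 for Zeb2. Without the knockdown line's replicate 2 arrays, Snai2 was 0.00 for knockdown dox and Cdh1 0.07 for line.

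With single arrays left out, knockdown dox ranged from -0.04 to 0.25 for Cdh1, -0.12 to 0.13 for Epcam, -0.10 to 0.20 for Snai1, -0.05 to 0.04 for Snai2, -0.39 to 0.11 for Zeb1 and -0.30 to 0.38 for Vim. Overexpression dox ranged from -0.03 to 0.12 for Cdh1, -0.19 to 0.06 for Cdh2, -0.19 to 0.21 for Epcam, -0.31 to 0.06 for Esrp1, -0.14 to 0.06 for Snai1, -0.35 to 0.15 for Snai2, -0.23 to 0.20 for Twist1, -0.12 to 0.33 for Zeb1, -0.11 to 0.16 for Zeb2 and -0.04 to 0.09 for Vim. The difference of dox effects ranged from -0.08 to 0.21 for Cdh1, -0.22 to 0.18 for Epcam, -0.07 to 0.23 for Snai1, -0.14 to 0.36 for Snai2, -0.50 to 0.03 for Zeb1 and -0.32 to 0.36 for Vim. Day ranged from -0.16 to 0.07 for Gmnn, -0.25 to 0.05 for Epcam and -0.14 to 0.12 for Snai1. Line ranged from -0.19 to 0.02 for Gmnn, -0.22 to 0.07 for Cdh1 and -0.24 to 0.01 for Snai2. Of 600 such values, 529 kept direction and side of the threshold, as did 481 of 515 under the other alternatives.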
